A study of Mus musculus with 8 samples.

Results

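Gene expression in the adult mouse brain was compared between males exposed to ethanol on gestational days 8 and 11, the first trimester equivalent of this study, and males exposed to saline on the same days. The comparison took the 4 arrays of this exposure out of the 8 in the series, and every probe set whose annotation names a single gene, which gave 21789 of the 35556 probe sets in the value table. The early ethanol group comprised 2 arrays of RNA from whole brains of C57BL/6J males at postnatal day 70, whose dams had received 2 subcutaneous injections of ethanol at 2.5 g/kg on each of the 2 days. The early saline group comprised 2 arrays of brains of the same strain, sex and age, whose dams had received 2 injections of saline alone on each of those days. Each array held RNA of 3 males from different litters, pooled in equal amounts, so an array is a mean over animals and the spread between animals was not measured. The p-values below therefore measure only the spread between pools. No foster mothers are described, so exposure in the womb and rearing by an injected dam cannot be told apart, and fewer cells of a type and less RNA per cell cannot be told apart in a whole brain.

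Early gestation in the mouse is the time when the neural plate closes and the forebrain is patterned, and ethanol given then is a known cause of midline and craniofacial defects. Most neurons of the olfactory bulb are made later, and some of them throughout life, when neuroblasts from the wall of the lateral ventricle migrate to the bulb and settle as granule and periglomerular interneurons. Mitral and tufted cells carry the signal from the bulb to the cortex, and receive it from the axons of olfactory sensory neurons whose cell bodies lie in the nose. The injections took place long before the brains were collected, so the arrays record a state of the adult brain and not the response to ethanol itself.

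Values are log2 intensities, and a difference is the mean of the ethanol arrays minus the mean of the saline arrays, with the standard error (SE) of the limma fit. A probe set was called at background when the mean of its 4 arrays was below 6.47, the 95th percentile of 1205 probe sets for olfactory and vomeronasal receptors, which are mostly silent in the brain. By this measure 12602 probe sets (57.8%) were above background. All 14 probe sets for neuronal and glial marker genes of brain were above background on every array.

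Arrays of different groups were about as alike as arrays of the same group. The median absolute difference of a probe set was 0.087 between the ethanol arrays and 0.105 between the saline arrays, against 0.078 to 0.102 between an ethanol and a saline array. The closest pair of all was ethanol replicate 2 and saline replicate 2. In limma, 0 of 21789 probe sets (0%) passed an adjusted p of 0.05, the smallest adjusted p being 1.0, while 411 had an unadjusted p under 0.05. Testing each probe set without moderation gave 770, and again 0 after adjustment. At the thresholds of the study, an unadjusted p under 0.05 and a 1.2-fold difference, 32 probe sets of 31 genes (0.147%) were higher in ethanol and 156 of 152 genes (0.716%) were lower. When each array was first centred on its median, the same thresholds gave 44 and 107.

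A second description asks only whether the groups overlapped. Both ethanol arrays were above both saline arrays in 1583 probe sets (7.27%) and below both in 4316 (19.8%). That imbalance depends on small offsets between arrays, since the median difference over all probe sets was -0.02 and centring gave 2519 above (11.6%) and 2901 below (13.3%). Counts in the gene groups below are read against these shares and not against 0. Differences of more than 0.5 were found in 32 probe sets that were higher and 20 that were lower, and only 4 and 2 probe sets differed by more than 1.

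**Figure D1:**
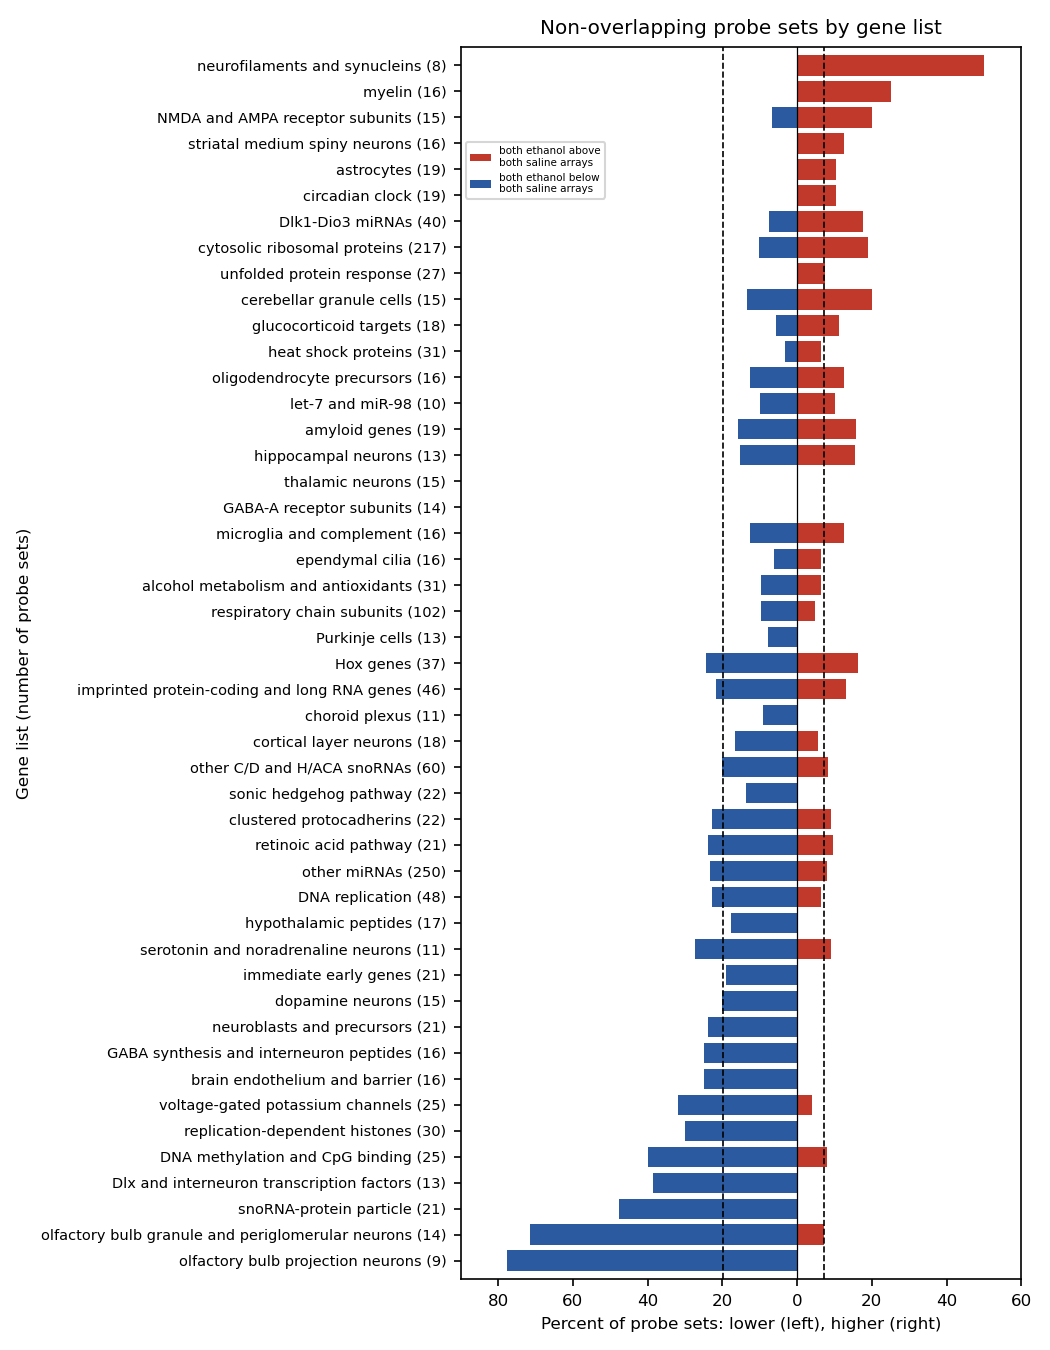
Share of the probe sets of each gene list (horizontal axis, percent) in which both ethanol arrays lay above both saline arrays (red, right) or below both (blue, left), for 47 of the 53 lists of 8 or more probe sets, leaving out markers of other tissues and the genes the study singles out; numbers in brackets are probe sets. Dashed lines mark the shares over all probe sets, 7.27% above and 19.8% below. The lists of olfactory bulb neurons have the longest blue bars, at 77.8% and 71.4%, and neurofilaments and synucleins the longest red bar, at 50%.

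The olfactory bulb gave the most one-sided groups. Of 9 probe sets for genes of its projection neurons, 7 (77.8%) were lower in both ethanol arrays and 0 were higher, with a median difference of -0.24 against -0.02 over all probe sets. Of 14 probe sets for granule and periglomerular neurons, 10 (71.4%) were lower and 1 was higher, with a median of -0.21. After centring, 7 and 10 probe sets were lower without overlap. The medians lay between -0.21 and -0.24 for the projection neurons and between -0.18 and -0.27 for the interneurons when any 1 array was left out.

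Among the genes of projection neurons, Cdhr1, a photoreceptor cadherin that also marks output neurons of the bulb (probe set 10419015), had values of 6.27 and 7.12 in ethanol, the first of them at background, and of 7.47 and 7.57 in saline. The difference was -0.83 (SE 0.27), and was -0.40 without ethanol replicate 1 and -1.25 without ethanol replicate 2. Doc2g, a C2 domain protein of the same cells, was at 6.99 and 7.50 in ethanol and 7.74 and 7.84 in saline. Its difference of -0.55 (SE 0.17) became -0.29 without ethanol replicate 1. Both genes were thus lowest in the same array, ethanol replicate 1. Eomes, a transcription factor of mitral and tufted cells, was at 7.98 and 8.05 in ethanol and 8.32 and 8.24 in saline, a difference of -0.27 (SE 0.08) that did not rest on 1 array. Tbx21, another T-box factor of these cells, was near background at 6.44 and 6.44 against 6.65 and 6.71. Reln, the secreted protein of mitral cells and of many other neurons, was close in the groups, at 9.87 and 9.84 in ethanol and 9.92 and 9.86 in saline.

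The interneuron genes of the bulb were lower by similar amounts and with less scatter. Th, tyrosine hydroxylase, the first enzyme of dopamine synthesis and a marker of dopaminergic periglomerular cells (probe set 10569370), was at 8.43 and 8.60 in ethanol and 8.90 and 9.20 in saline, a difference of -0.53 (SE 0.13). Gng4, a G protein gamma subunit rich in granule cells (probe set 10403658), was at 9.84 and 10.00 in ethanol and 10.35 and 10.34 in saline, a difference of -0.43 (SE 0.09). Synpr, synaptoporin, a protein of synaptic vesicles, was at 8.68 and 8.73 against 9.09 and 8.97. The groups of these 3 genes were separated by at least 0.24. Smaller differences were measured for the transcription factors Pbx3 (-0.26, SE 0.08), Meis2 (-0.30, SE 0.10) and Tshz1 (-0.24, SE 0.08). The exception was Etv1, a factor of periglomerular cells that other neurons express as well, which differed by 0.02 and 0.11 in its 2 probe sets. Calb2, calretinin, also overlapped between groups, at 11.61 and 11.37 in ethanol and 11.62 and 11.51 in saline.

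Th is also made by dopamine neurons of the midbrain. Of 15 probe sets of the dopamine neuron list, 3 (20%) were lower without overlap and 0 were higher, with a median of -0.03, close to all probe sets. Besides Th, the lower ones were Slc6a3, the dopamine transporter, at 8.50 and 8.42 against 8.78 and 8.50, and Foxa2, at background.

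Transcription factors of the Dlx family, which specify GABAergic interneurons of the forebrain, were lower as well. Dlx2 (probe set 10483626) was at 6.85 and 6.61 in ethanol and 7.18 and 7.30 in saline, a difference of -0.51 (SE 0.11). Dlx1 was at 8.04 and 8.49 in ethanol and 8.72 and 8.89 in saline, a difference of -0.53 (SE 0.16) that became -0.31 without ethanol replicate 1. Dlx6 was at 6.33 and 6.55 against 6.85 and 6.78. Over the whole list of interneuron factors, 5 of 13 probe sets (38.5%) were lower without overlap, 0 were higher and the median was -0.02. Dlx5, the fourth Dlx gene measured, overlapped between groups, at 7.62 and 7.11 in ethanol and 7.37 and 7.40 in saline. Dcx, doublecortin, the microtubule protein of migrating neuroblasts, was at 8.72 and 9.04 in ethanol and 9.14 and 9.32 in saline, a difference of -0.35 (SE 0.13) that became -0.19 without ethanol replicate 1. Of 21 probe sets for neuroblasts and precursors, 5 (23.8%) were lower, near the share of all probe sets.

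Genes known from the nose were detected in these samples, and they differed between arrays in both directions. Omp, by which mature sensory neurons of the nose are commonly identified (probe set 10565705), was at 6.75 and 7.05 in ethanol and 7.39 and 7.73 in saline, a difference of -0.66 (SE 0.16). Stoml3 (probe set 10491993), whose protein tunes mechanosensitive channels and lies in olfactory cilia, was at 6.27 and 6.92 in ethanol and 7.72 and 8.65 in saline, a difference of -1.59 (SE 0.35), the lowest array again at background. S100a5, a calcium-binding protein of the same neurons, was at 5.81 and 6.42 against 6.67 and 6.73, both ethanol arrays being at background, so no size is given for its difference. Omp and Stoml3 gave the same order of arrays, with ethanol replicate 1 lowest and saline replicate 2 highest. Of 17 probe sets for olfactory sensory neurons 8 (47.1%) were lower without overlap and 1 was higher, and after centring 4 were lower and 1 was higher. Of the 17, 8 were above background, and the defining transduction genes Cnga2 and Cnga4 and the receptor chaperones Rtp1 and Rtp2 were at background on all arrays. The summed level of the list was 12.32 to 12.40 in ethanol and 12.45 to 12.46 in saline on the log2 scale. Its brightest member was Gnal, at 11.20 and 11.23 in ethanol and 11.31 and 11.11 in saline. Gnal was lowest in saline replicate 2 and the sum in ethanol replicate 1, so the sum did not keep the array order of Gnal. It includes this bright gene and is not a measure of sensory neurons alone.

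The genes of nasal glands ran the other way. Bpifb9b, a secreted protein of the BPI family (probe set 10477536), was at 11.75 and 9.33 in ethanol and 7.09 and 6.43 in saline, a difference of 3.78 (SE 0.75) that ranged from 2.57 to 4.99 when 1 array was left out. Bpifb9a (probe set 10477528) was at 10.84 and 8.50 in ethanol and 7.22 and 7.13 in saline, a difference of 2.49 (SE 0.70) that became 1.33 without ethanol replicate 1. The 2 genes are near-identical neighbours and their probe sets may share signal. Ethanol replicate 1 alone was also high for Obp2a, an odorant-binding lipocalin, at 8.32 against 5.28 to 5.63 on the other arrays. The same array was at 7.46 for Bpifa1, a secreted airway protein, against 5.35 to 5.64 on the others. Of 16 probe sets for nasal glands 7 (43.8%) were higher and 4 (25%) lower without overlap, but only the Bpifb9 pair was above background over the 4 arrays. The summed level of this list was 12.67 and 10.76 in ethanol and 9.94 and 10.00 in saline, so the saline arrays were alike and the ethanol arrays were not.

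Cyp2g1, a cytochrome P450 of the olfactory mucosa, was at 5.72 and 6.15 in ethanol and 6.18 and 7.25 in saline. Both ethanol arrays and saline replicate 1 were at background. Its signal thus rested on saline replicate 2, the array that was also highest for Omp and Stoml3. Ethanol replicate 1 was thus the lowest array for Omp, Stoml3, Cdhr1, Doc2g, Eomes, Th, Gng4 and Synpr and the highest for the Bpifb9 pair, Obp2a and Bpifa1. Whether the amount of bulb and nasal tissue left on the brains contributed to the differences in bulb genes was not tested. Between the saline arrays Stoml3 also differed, by 0.93, and Cyp2g1 was above background in saline replicate 2 only.

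**Figure D2:**
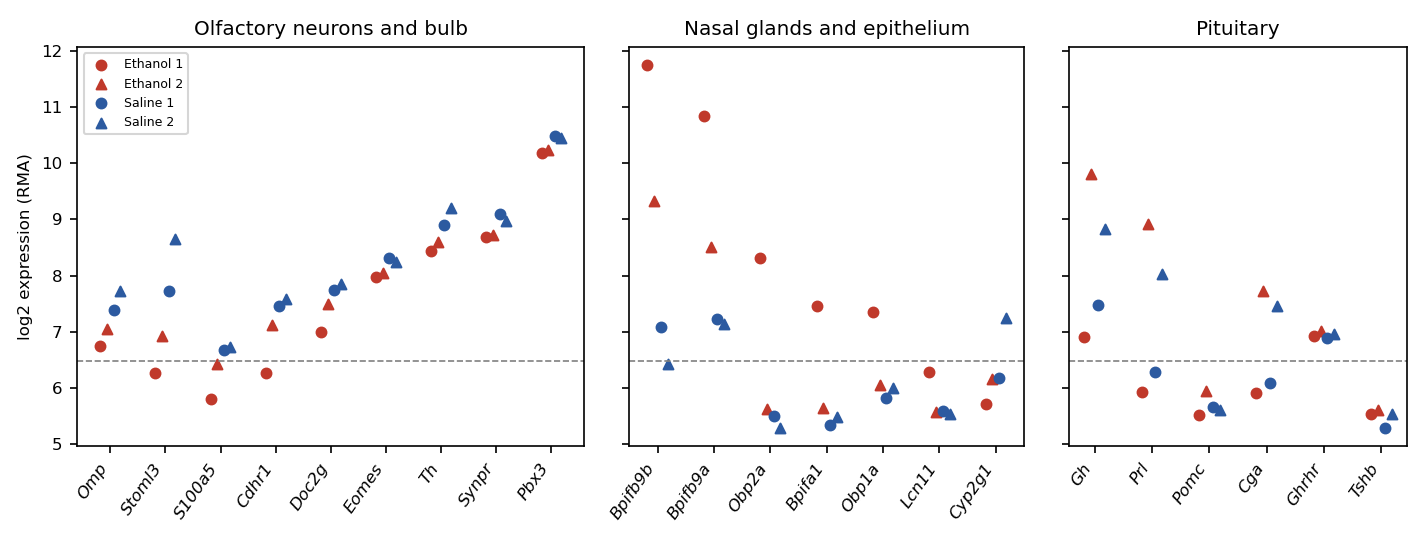
Log2 expression (vertical axis, RMA) on each of the 4 arrays of genes of olfactory neurons and bulb, of nasal glands and epithelium, and of the pituitary (horizontal axis); red is ethanol, blue is saline, circles are replicate 1, triangles replicate 2, and the dashed line is the background level of 6.47. The bulb and sensory neuron genes shown were lower in both ethanol arrays. Members of those lists that were not, among them Reln, Calb2 and Etv1, are left off. Bpifb9a and Bpifb9b were higher in both ethanol arrays, and Obp2a and Bpifa1 were high in ethanol replicate 1 alone. The hormones Gh, Prl and Cga were highest in both replicate 2 arrays.

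Besides these groups, single genes of varied function were lower in both ethanol arrays, with differences of -0.54 to -0.32. Pcna, the sliding clamp of DNA replication and repair (probe set 10487930), was at 10.47 and 10.28 in ethanol and 10.89 and 10.81 in saline, a difference of -0.48 (SE 0.10), and a second probe set with nearly the same values gave -0.48. Of the other 46 probe sets for DNA replication, 9 (19.6%) were lower and 3 (6.52%) higher without overlap, close to the shares of all probe sets. Syt10, a synaptotagmin that is abundant in the bulb (probe set 10431625), was at 9.0 and 9.21 in ethanol and 9.74 and 9.55 in saline, a difference of -0.54 (SE 0.11). Atf1, a transcription factor of the CREB family (probe set 10426875), was at 7.51 and 7.59 in ethanol and 7.97 and 7.92 in saline. Its difference of -0.40 (SE 0.08) had the smallest unadjusted p of all probe sets in limma, 0.00278.

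Lgr5, the R-spondin receptor known from stem cells, which some neurons also express (probe set 10372503), was at 7.96 and 8.36 in ethanol and 8.67 and 8.66 in saline, a difference of -0.50 (SE 0.14) that became -0.30 without ethanol replicate 1. Mtx2, metaxin 2 of the mitochondrial outer membrane, was at 9.71 and 9.81 against 10.20 and 10.12. Rpl36a, a protein of the large ribosomal subunit, was at 11.11 and 11.08 against 11.47 and 11.44 in 1 probe set and differed by -0.35 in the other. That difference did not extend to ribosomal proteins in general, of which 41 of 217 probe sets (18.9%) were higher and 22 (10.1%) lower without overlap, with a median of 0.03. Chml, a Rab escort protein, differed by -0.34 (SE 0.07) and Prxl2c, a peroxiredoxin-like protein, by -0.32 (SE 0.08), both with saline arrays within 0.05 of each other.

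Genes that were higher in both ethanol arrays formed a smaller and more mixed group. Trdn, triadin, a calcium-release protein of muscle (probe set 10362428), was at 7.48 and 7.52 in ethanol and 7.07 and 7.16 in saline, a difference of 0.39 (SE 0.08), while the list of skeletal muscle genes had 0 of 11 probe sets higher without overlap. Camta1, a calmodulin-binding transcription activator of neurons, was at 11.07 and 11.21 against 10.82 and 10.86. Mcur1, a regulator of mitochondrial calcium uptake, differed by 0.22 (SE 0.07), Med21, a Mediator subunit, by 0.26 (SE 0.08), Cspp1, a protein of spindle and cilium, by 0.28 (SE 0.08) and Pcdhb3, a clustered protocadherin, by 0.22 (SE 0.08). Tph2, the enzyme of serotonin synthesis in the brain, was near background at 6.89 and 6.66 in ethanol and 6.42 and 6.47 in saline, a difference of 0.33 (SE 0.10) that became 0.21 without ethanol replicate 1. In the list of serotonin and noradrenaline neurons it was the only probe set of 11 that was higher without overlap, and 3 were lower.

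For some higher genes the probe sets disagreed, or the value depended on 1 array. Dnajc13, a co-chaperone of endosomes, differed by 0.35 (SE 0.12) in probe set 10596259, and by 0.20 without saline replicate 1, while its other 14 probe sets ranged from -0.20 to 0.09. COX2, the mitochondrial subunit of cytochrome oxidase (probe set 10353630), was at 14.61 and 14.80 in ethanol and 14.35 and 13.70 in saline, a difference of 0.68 (SE 0.21) that became 0.36 without saline replicate 2. ND3, a mitochondrial subunit of complex I, also had its lowest values in saline replicate 2, at 12.73 and 13.59 in its 2 probe sets. Very bright probe sets annotated to Rab2a (10529873) and Baiap2l1 (10445185) followed the same pattern of arrays. They differed by 0.62 and 0.56, by 0.27 and 0.31 without saline replicate 2, and by 0.31 and 0.15 after quantile normalization. Another probe set for Rab2a differed by 0.10. Of the other probe sets for Baiap2l1, 10536170 was also higher without overlap, at 12.52 and 12.53 against 12.32 and 12.23, a difference of 0.25 that was 0.21 without saline replicate 2, and 10535559, at background on all arrays, differed by -0.10. Of 102 probe sets for the respiratory chain, 5 (4.90%) were higher and 10 (9.80%) lower without overlap.

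**Figure D3:**
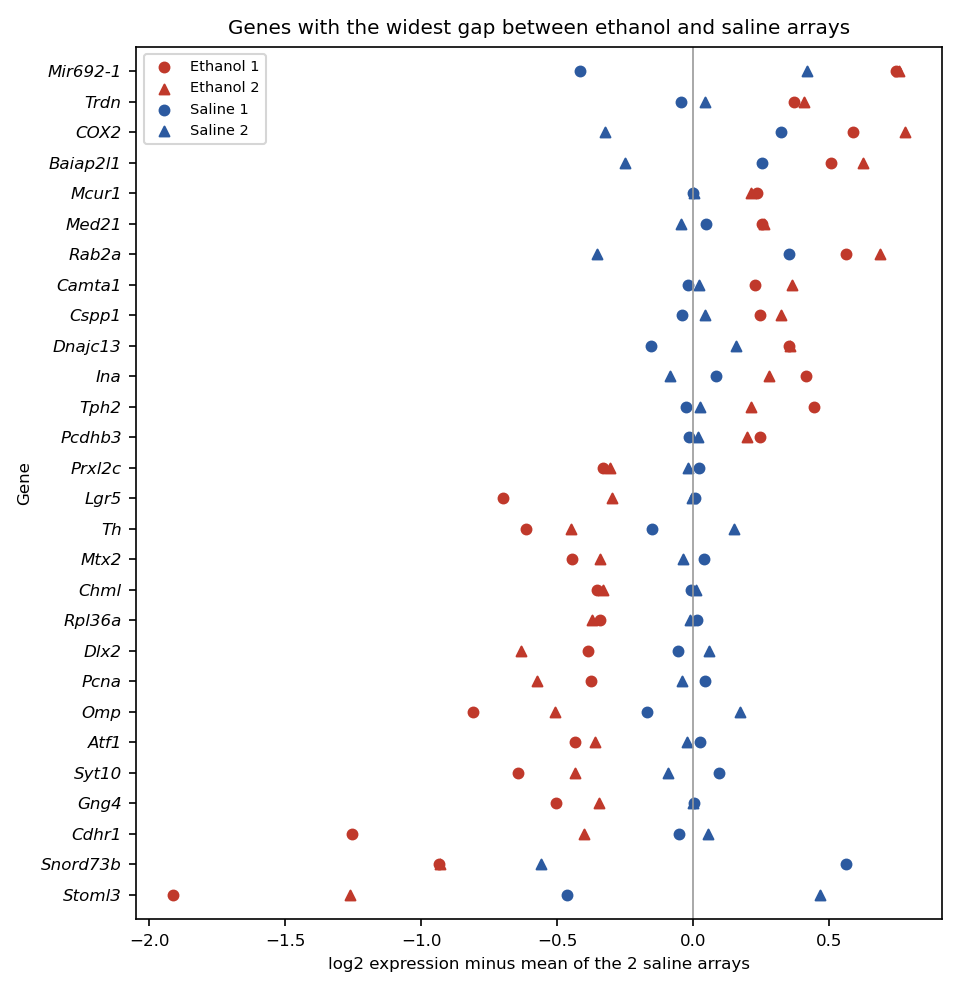
Log2 expression on each of the 4 arrays minus the mean of the saline arrays (horizontal axis) for 28 genes (vertical axis) above background with the widest gap between the nearest ethanol and saline arrays; red is ethanol, blue is saline, circles are replicate 1 and triangles replicate 2. Bpifb9a and Bpifb9b are left off for scale. Stoml3 at -1.59 and Cdhr1 at -0.83 had the largest mean differences among protein-coding genes, and Mir692-1 and Snord73b had saline arrays far apart.

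Genes of axon structure and of myelin had members that were higher in both ethanol arrays and 0 that were lower in both. All 8 probe sets for neurofilaments and synucleins had a difference above 0 and 4 (50%) were higher without overlap, with a median of 0.12 that was 0.056 without ethanol replicate 1 and 0.23 without ethanol replicate 2. Ina, alpha-internexin, a neuronal intermediate filament (probe set 10463737), was at 12.76 and 12.62 in ethanol and 12.43 and 12.26 in saline, a difference of 0.35 (SE 0.10), and its second probe set differed by 0.11 with overlap. Sncg, gamma-synuclein, was at 9.73 and 9.48 against 9.19 and 9.39, a difference of 0.31 (SE 0.12) that became 0.19 without ethanol replicate 1. Nefl, the light neurofilament, was at 12.51 and 12.40 against 12.35 and 12.16, a difference of 0.20. After quantile normalization Nefl differed by 0.12 and this Ina probe set (10463737) by 0.25, while Sncg differed by 0.33. Of 7 probe sets for neuronal markers of brain, 5 had a difference above 0 and 2 below. The bright Snap25 and Syt1 differed by 0.18 and 0.14 with overlap, and by -0.01 and 0.01 after that scaling.

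Of 16 myelin probe sets, 4 (25%) were higher without overlap and 0 lower, with a median of 0.11 that was 0.02 without saline replicate 2. Mobp, a structural protein of central myelin, was at 11.41 and 11.29 in ethanol and 11.19 and 11.05 in saline. Mbp, myelin basic protein, was at 12.00 and 11.87 against 11.80 and 11.63, a difference of 0.22 (SE 0.10). After quantile normalization Mbp differed by 0.17, and Mobp by 0.22 against 0.23 before. Mag and Mog, proteins of the outer myelin surface, overlapped between the groups. In 11 of the 16 probe sets replicate 1 was above replicate 2 in both groups.

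Lists of chromatin and RNA modification were counted against a background in which 61.9% of all probe sets had a difference below 0. Of 25 probe sets for DNA methylation and CpG binding, 10 (40.0%) were lower without overlap and 2 (8.00%) higher, with a median of -0.04. Mbd4, a glycosylase that repairs deaminated methylcytosine, was near background at 6.41 and 6.35 in ethanol and 6.65 and 6.67 in saline, a difference of -0.28 (SE 0.08). Tet1, which oxidises methylcytosine, was lower without overlap in 3 probe sets, by 0.08 to 0.24. Ctcf, the insulator protein whose binding depends on methylation, was at 9.34 and 9.34 against 9.53 and 9.45. Of 30 probe sets for replication-dependent histones, 9 (30.0%) were lower and 0 higher, with H1f2, a linker histone, at 9.29 and 9.44 against 9.77 and 9.54, a difference of -0.30 that became -0.18 without saline replicate 1.

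The proteins of the snoRNA particle, which guide the modification of ribosomal RNA, had 10 of 21 probe sets (47.6%) lower without overlap and 0 higher, with a median of -0.11. This group rested on saline replicate 1, without which the median was -0.02, and after centring 5 probe sets were lower. Nhp2, a core protein of box H/ACA particles, was at 6.80 and 6.77 in ethanol and 7.20 and 6.86 in saline. Voltage-gated potassium channels had 8 of 25 probe sets (32.0%) lower and 1 higher, with Kcna2 at 9.81 and 9.70 against 9.95 and 10.01 in 1 of its probe sets. The other, brighter Kcna2 probe set (10495193) differed by 0.02 with overlap, at 11.60 and 11.46 against 11.52 and 11.49. Endothelial and barrier genes had 4 of 16 (25%) lower and 0 higher, with Cldn5, a tight junction protein, at 8.43 and 8.57 against 8.64 and 8.73. In the list of meninges and bone 3 of 8 were lower, among them Dcn, decorin, at 9.91 and 10.05 against 10.33 and 10.26.

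The genes that the study singles out were close in the groups. Of 16 probe sets, 2 were higher and 4 lower without overlap, and the study chose them mainly on another exposure paradigm. Apoe, apolipoprotein E, was at 12.01 and 11.98 in ethanol and 11.88 and 11.87 in saline. Meg3, the maternally expressed long RNA of the Dlk1-Dio3 region, was at 11.89 and 11.81 against 11.63 and 11.79. Otx2, a homeobox factor of the forebrain and choroid plexus, differed by 0.01 (SE 0.08) and App, the amyloid precursor, by 0.09 (SE 0.09). Nmnat1, which makes NAD, was at 6.73 and 6.72 against 6.79 and 6.89, and Ghr, the growth hormone receptor, differed by -0.14 (SE 0.08). The remaining members, Akt1, Cdk5, Dio3, Dlk1, Igf2, Sfmbt2 and the 2 probe sets for Slitrk2, differed by -0.10 to 0.04.

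Small RNAs were measured by probe sets for their genes, and whether these see the mature RNA or its precursor is not given in the sources used here. Of the miRNA genes with a probe set of their own, 272 have a mature sequence in RefSeq (GRCm38.p6) and 25 were not matched. The sequences of those with the widest gap, and of miR-679, which the study follows, are shown with the seed, bases 2 to 8, in capitals. For miR-340, miR-496a and miR-679 only the mature strand named is shown, and the opposite strand is left out. For Mirlet7a-2 only the 3p strand was matched. None of the sequences shown shares its seed with another.
mmu-miR-692: aUCUCUUUgagcgccucacuc
mmu-miR-340-5p: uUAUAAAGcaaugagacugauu
mmu-miR-496a-3p: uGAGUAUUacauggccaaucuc
mmu-let-7a-2-3p: cUGUACAGccuccuagcuuuc
mmu-miR-451a: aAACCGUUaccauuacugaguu
mmu-miR-679-5p: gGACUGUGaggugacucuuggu

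Mir692-1 (chr17:6895259-6895279 for the mature RNA in GRCm38.p6) was at 8.97 and 8.98 in ethanol and 7.80 and 8.64 in saline, a difference of 0.75 (SE 0.26) that became 0.33 without saline replicate 1 and 1.17 without saline replicate 2. Mir340 was near background at 6.68 and 6.64 against 6.43 and 6.54. Mir496a, of the Dlk1-Dio3 region, was at 7.47 and 7.47 against 7.26 and 7.37. Mirlet7a-2, at 6.11 and 6.19 against 5.75 and 5.96, was below background, and its difference of 0.29 became 0.19 without saline replicate 1. Also below background was Mir451a, a miRNA of red blood cells, at 5.78 and 5.70 against 6.04 and 6.00. Mirlet7f-1, another let-7 gene, was lower, at 6.25 and 6.19 against 6.67 and 6.36, so that of 10 let-7 and miR-98 probe sets 1 was higher and 1 lower without overlap. Whether blood content differed was not tested. Of 11 blood genes only 4 had a probe set, and of these only 1, that of Alas2, was above background. Their summed level was 8.10 and 8.19 in ethanol and 8.19 and 8.17 in saline. Mir679 overlapped between groups, at 9.08 and 8.95 in ethanol and 8.71 and 9.02 in saline, a difference of 0.15 (SE 0.12).

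MiRNAs were also counted by region. Of 40 probe sets in Dlk1-Dio3, a large imprinted miRNA cluster, 7 (17.5%) were higher and 3 (7.50%) lower without overlap, with a median of 0.07 that was 0.0043 without saline replicate 1. Of 250 for other miRNAs, 20 (8.00%) were higher and 58 (23.2%) lower, both near the shares of all probe sets, with a median of -0.04, and after centring 38 were lower.

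Among the other small RNAs, Snord73b, a box C/D snoRNA (probe set 10499130), was at 7.94 and 7.94 in ethanol and 9.44 and 8.32 in saline, a difference of -0.93 (SE 0.34) that became -0.37 without saline replicate 1. Snora44, a box H/ACA snoRNA, was at 7.59 and 7.27 against 8.15 and 7.78, a difference of -0.53 (SE 0.17) that became -0.35 without saline replicate 1. Scarna13, a guide RNA of Cajal bodies, was at 8.97 and 9.01 against 9.25 and 9.23. Snord14e was at 9.59 and 9.44 against 9.75 and 9.90. Rn7sk, the RNA that holds back transcription elongation, was higher, at 13.61 and 13.63 against 13.45 and 13.32. Its difference of 0.24 depended on the scaling, and became 0.13 after cyclic loess and 0.0085 after quantile normalization. Over 60 snoRNA probe sets outside imprinted clusters, 12 (20%) were lower and 5 (8.33%) higher, the shares of all probe sets. Snord116, the MBII-85 family of the Snrpn region, had 0 probe sets with a single symbol, because all 24 that name it list several copies.

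Pathways linked to ethanol and to the defects it causes were counted in the same way. Alcohol metabolism and antioxidants had 2 of 31 probe sets (6.45%) higher and 3 (9.68%) lower, which after centring were 5 and 0. The unfolded protein response had 2 of 27 (7.41%) higher and 0 lower. Heat shock proteins had 2 of 31 higher and 1 lower. In the retinoic acid pathway, which patterns the early embryo, 2 of 21 were higher and 5 (23.8%) lower, and in the sonic hedgehog pathway, which patterns the midline, 0 of 22 were higher and 3 (13.6%) lower, which after centring were 4 and 3. GABA-A receptor subunits, known targets of ethanol in the adult brain, overlapped between the groups in all 14 probe sets. Astrocytes had 2 of 19 higher and 0 lower, and microglia and complement had 2 of 16 in each direction.

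Among activity-dependent genes, a few were lower in both ethanol arrays, and most differed by replicate number. Npas4, a neuronal factor induced by calcium entry, was at 7.84 and 7.42 in ethanol and 8.17 and 8.03 in saline, a difference of -0.47 (SE 0.15) that became -0.26 without ethanol replicate 2. Btg2, an antiproliferative gene of the same class, was at 8.26 and 8.11 against 8.55 and 8.72, a difference of -0.45 (SE 0.10). Jun was at 8.86 and 8.82 against 9.13 and 9.02. With Bdnf, at background, these were 4 of 21 probe sets (19%) lower without overlap, close to the share of all probe sets, and 0 were higher. Npas4 and Jun also had replicate 1 above replicate 2 in both groups.

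Other immediate early genes differed by replicate number in both groups. Nr4a1, a nuclear receptor induced by activity, was at 10.38 and 9.05 in ethanol and 10.25 and 9.62 in saline. Dusp1, a phosphatase of MAP kinases, was at 10.80 and 9.59 against 10.63 and 10.08. Replicate 1 was above replicate 2 in both groups in 16 of 18 immediate early probe sets above background and in 16 of 19 circadian clock probe sets, against 47.5% of all probe sets above background. Ciart, a clock repressor, was at 8.44 and 7.0 in ethanol and 8.07 and 7.04 in saline in 1 of its probe sets. Pituitary genes ran opposite, with replicate 2 above replicate 1 in both groups in 4 of 4 probe sets above background. Gh, growth hormone, was at 6.90 and 9.81 in ethanol and 7.48 and 8.83 in saline, and Prl, prolactin, at 5.93 and 8.92 against 6.28 and 8.03.

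**Figure D4:**
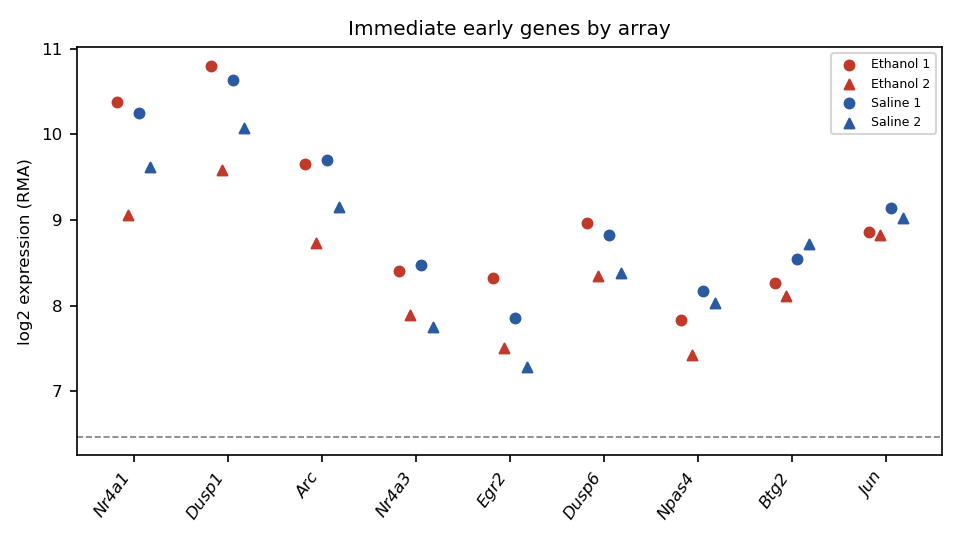
Log2 expression (vertical axis, RMA) of 9 immediate early genes (horizontal axis) on each of the 4 arrays; red is ethanol, blue is saline, circles are replicate 1 and triangles replicate 2, and the dashed line is the background level of 6.47. Nr4a1, Dusp1, Arc, Nr4a3, Egr2 and Dusp6 separate by replicate number, and Npas4, Btg2 and Jun were lower in both ethanol arrays.

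Th is a known target of CREB family factors, to which Atf1 belongs. Th and Btg2 both carry the cAMP response element TGACGTCA, a palindrome that reads alike on both strands, in their RefSeq promoters of 250 bases before and 50 after the gene start (GRCm38.p6). They are shown 5′ to 3′ on the strand of the gene, with the element in capitals, as chr7:142899946-142900245 on the minus strand for Th and chr1:134079106-134079405 on the minus strand for Btg2. The element begins 45 bases before the gene start in Th and 166 bases before it in Btg2.
Th: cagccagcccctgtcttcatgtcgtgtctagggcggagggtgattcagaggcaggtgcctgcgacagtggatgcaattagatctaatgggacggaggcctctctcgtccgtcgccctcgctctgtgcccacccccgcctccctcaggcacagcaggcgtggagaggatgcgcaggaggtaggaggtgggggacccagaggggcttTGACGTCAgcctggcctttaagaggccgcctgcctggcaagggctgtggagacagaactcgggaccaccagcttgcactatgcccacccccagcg
Btg2: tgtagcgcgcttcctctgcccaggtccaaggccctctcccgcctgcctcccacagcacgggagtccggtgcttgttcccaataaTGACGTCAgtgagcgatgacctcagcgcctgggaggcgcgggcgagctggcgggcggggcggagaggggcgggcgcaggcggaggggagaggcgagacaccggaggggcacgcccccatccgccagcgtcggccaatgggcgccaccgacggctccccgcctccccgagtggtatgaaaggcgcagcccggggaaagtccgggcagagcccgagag

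These 8 letters were found in 588 of 32851 mouse promoters (1.79%) and in 424 of 15614 genes with a probe set of their own (2.72%). Of the genes that were lower at the thresholds of the study, 120 had a promoter sequence. In 6 of these (5.0%) it held the element, the others being Gemin6, Nup133, Tmem219 and Trmt5. The element was in 0 of 19 such genes that were higher. Among the genes named for the widest gap, it was in 1 of 12 lower (8.33%) and 1 of 9 higher (11.1%). These counts are small, and a difference between lower and higher genes was not tested. Of 17 immediate early genes with a promoter sequence, the class that includes Btg2, 2 (11.8%) held the element. The letters describe the window and say nothing of what binds there. Whether the level of Atf1 bears on Th or Btg2 was not tested.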

How the data were processed

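Whole-brain RNA was hybridised to Affymetrix whole-transcript mouse arrays (Gene 1.0 ST), and the log2 values deposited by the authors were used. The authors describe summarising probes in the Partek software with the RMA algorithm, with correction for GC content and quantile normalization. The release is 6.6 per the submitters' notes, although an earlier one is given for these arrays in the methods of the study. The deposited values of the 4 early arrays did not share 1 distribution. Their medians over all probe sets ran from 6.74 to 6.84 and their maxima from 14.00, in saline replicate 2, to 15.80. The genome build is not given in the sources used here. Gene names came from the platform annotation (21789 probe sets with 1 symbol, of which 21698 have a gene ID in RefSeq, 1621 with several and 12146 with none). Groups were compared in limma 3.58.1 (R 4.3.3) on the 4 early arrays, with Benjamini-Hochberg adjustment over 23410 probe sets with a symbol; the fit was tested on simulated data. The number of arrays limits the precision.

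Genes named are the 15 per direction above background with the widest gap between the nearest ethanol and saline array, without unnamed loci and receptors, 5 small RNAs per direction, the genes the study singles out, and up to 6 members, with the best known one, of each list described. Cyp2g1, Bpifa1, Obp2a, Ciart, ND3, Mirlet7f-1, Dlx5 and others that overlapped or lay at background were added after their values were seen. The members and lists were chosen with earlier results of these data known. Alternatives were all 8 arrays, no moderation of variances, a replicate block, 3 scalings, filters on dim probe sets, other probe set choices, an intensity trend and leaving out each array. Figures were drawn in matplotlib 3.10.9 (Python 3.11.15).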

Additional observations from a re-analysis of the deposited data

How the results depend on the processing

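At the thresholds of the study, the 32 higher and 156 lower probe sets became 5 and 46 with the unmoderated test, 50 and 90 after cyclic loess, 19 and 99 without the dimmest 50%, and 445 and 407 when probe sets without a symbol were included. Apart from the replicate block and leaving out 1 array, both given below, other settings kept both counts within 1.5 times. Among them was quantile normalization with 37 and 116. When 1 array was left out the counts ranged from 141 to 291 higher and from 179 to 725 lower, the array left alone being assumed to vary like the others, and from 0 to 4 probe sets passed the adjusted threshold in limma. The 4 were Obp2a, Bpifa1, Bpifb9a and Bpifb9b without ethanol replicate 2. Causes of these shifts were not tested.

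With the replicate number as a block, 113 were higher and 220 lower, and 4 passed an adjusted p of 0.05 in limma: Stoml3 (0.00693), Bpifb9b (0.0399), Omp (0.0449) and Srsy (0.0449), a Y-linked family named after its values were seen. Deviations of same-numbered arrays correlated at 0.31 over all probe sets, but 2 pairs are too few to call the arrays paired.

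Of the named values under the 15 settings, 1 lost its direction: COX2 differed by 0 after quantile normalization, which sets values by rank. COX2 ranked 5 from the top on both arrays of replicate 1 and 4 on both of replicate 2, which gave equal values. Rn7sk kept its direction there but fell from 0.24 to 0.0085. Differences of probe sets at background (6.47) are limited by signal, and the median SE of a difference was 0.09 with 2 arrays a group.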
